A study of Mus musculus with 80 samples.

Results

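Interferon-stimulated genes are the genes that cells switch on after interferon has bound its receptor, and 9 of them, Usp18, Rsad2, Ifi27l2a, Isg15, Ifit1, Ifit3, Irf7, Ifi44 and Slfn5, were followed here through acute liver injury. The 9 were listed by name with earlier results of these data known, so shares of all genes called, given below beside their counts, describe the background and are no test of the list. All 9 were present among the 14560 genes of the deposited table and among the 14558 genes tested. Livers came from female C57BL/6J mice, 8 weeks old, that lacked Adamts12, which encodes a secreted metalloproteinase of the extracellular matrix, or were wild type. Each mouse received a single intraperitoneal injection of CCl4, a hepatotoxin that hepatocytes activate to a radical, at 0.3 ml per kg and 3% by volume in olive oil, or of olive oil alone (vehicle), and livers were taken after 4 h, 12 h, 24 h or 7 days. The 16 groups held 5 libraries each, labelled as separate mice, and p-values measure the spread between these livers.

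Type I interferon acts through the receptor chains Ifnar1 and Ifnar2, the kinases Jak1 and Tyk2, and a complex, with Stat2 and Irf9 among its parts, that binds the interferon-stimulated response element in the promoters of its target genes. Rsad2 (viperin), Ifit1 and Ifit3 are antiviral effectors. Isg15 is a ubiquitin-like protein that is attached to other proteins, and Usp18 removes it and also blocks signalling at Ifnar2. Irf7 is a transcription factor that amplifies interferon production, while Ifi44, Ifi27l2a and Slfn5 are further interferon-induced genes whose roles are less fully worked out. In the liver, hepatocytes and resident macrophages both respond to type I interferon.

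The libraries held 18.65 to 64.49 M reads in the genes of the table (median 32.7). A value of 0 therefore allows up to 6.02 normalized counts (counts divided by a size factor per library), the largest such value of any library used. This limit covers counting error only. Adamts12 averaged 8.23 ± 5.52 normalized counts in Adamts12-/- livers and 23.6 ± 16.6 in wild-type livers (SD, n = 38 and 40). Its ranges overlapped, at 0.949 to 25.4 in Adamts12-/- and 5.89 to 75.6 in wild-type livers. The means lay close in CCl4 livers of 12 h, at 14.4 ± 10.1 in Adamts12-/- (n = 4) and 15.1 ± 3.16 in wild-type livers (n = 5). They lay furthest apart in CCl4 livers of 24 h, at 11.5 ± 2.84 and 58.1 ± 18.4 in those genotypes (n = 5 each). Alb, the hepatocyte marker albumin, lay between 951199 and 4894536 normalized counts in the 78 libraries used. The library labelled Adamts12-/- 12 h CCl4 replicate 5 and the library labelled Adamts12-/- 12 h vehicle replicate 1 stood with the livers of the other treatment and were left out, and results at 12 h in Adamts12-/- livers are also given with all 80 libraries. In the CCl4 library left out, Rsad2 was at 186 normalized counts against 1116 to 2394 in the other Adamts12-/- CCl4 livers of 12 h. In the vehicle library left out, Rsad2 was at 2110 normalized counts against 138 to 772 in the other Adamts12-/- vehicle livers of 12 h. In whole liver RNA, fewer cells of a type and less RNA per cell cannot be told apart.

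Positions are those of the mouse build GRCm38, and all 9 genes are protein coding. Ifit3 (19:34583531-34588731) and Ifit1 (19:34640871-34650009) lie near each other on chromosome 19, and Rsad2 (12:26442746-26456452) and Ifi27l2a (12:103442167-103443680) are far apart on chromosome 12. Usp18 is at 6:121245906-121270917, Isg15 at 4:156199424-156200818, Irf7 at 7:141262706-141266481, Ifi44 at 3:151730922-151749960 and Slfn5 at 11:82951349-82964840. Exons of Gm44148, Phrf1 and Slfn5os overlap those of Usp18, Irf7 and Slfn5 on the opposite strand. The library kit keeps the strand, but the strand setting of the counting is not given in the sources used here, so reads of these pairs may have been shared. Ifit3 with Ifit3b, and Ifi27l2a with Ifi27l2b, are close copies, and their counts carry the uncertainty of reads that could map to both.

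Promoters of 7 of the 9 genes were found in the RefSeq promoter table (GRCm38.p6). These were searched over 300 bases, 250 before the start and 50 after it, for the core of the interferon-stimulated response element, written as GAAA, any NN and GAAA again, or as TTTC, any NN and TTTC again on the other strand, with overlapping matches allowed. The motif was present in 5 of the 7, and in 1131 of all 32851 promoters in the table (3.44%). Among the other interferon-stimulated genes listed for this work, 13 of the 33 genes with a promoter in the table held it (39.4%). This share is counted by gene, and that of all promoters by promoter. Rsad2 held 1 match, Isg15 held 3 overlapping matches, Ifit1 and Ifit3 held 2 each and Slfn5 held 1. The 300 bases of Irf7 and of Ifi44 held no match, which says only that these letters are not in that window. The 170 bases before the RefSeq start of 4 of these genes are shown because they hold 8 of the 9 matches found. They are written 5′ to 3′ on the strand of the gene, with the matching bases in capitals.
Rsad2 (chr12:26456453-26456622, minus strand): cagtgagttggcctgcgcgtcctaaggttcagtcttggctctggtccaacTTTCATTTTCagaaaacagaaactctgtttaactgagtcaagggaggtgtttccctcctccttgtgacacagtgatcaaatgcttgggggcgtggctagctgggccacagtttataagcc
Isg15 (chr4:156200819-156200988, minus strand): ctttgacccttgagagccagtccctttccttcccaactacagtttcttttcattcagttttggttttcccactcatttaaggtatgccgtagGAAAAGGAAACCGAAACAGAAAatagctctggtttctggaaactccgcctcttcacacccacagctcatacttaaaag
Ifit1 (chr19:34640719-34640888, plus strand): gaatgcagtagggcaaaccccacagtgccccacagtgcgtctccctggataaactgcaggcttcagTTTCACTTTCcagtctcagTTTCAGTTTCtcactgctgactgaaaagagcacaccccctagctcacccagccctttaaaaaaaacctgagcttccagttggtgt
Ifit3 (chr19:34583359-34583528, plus strand): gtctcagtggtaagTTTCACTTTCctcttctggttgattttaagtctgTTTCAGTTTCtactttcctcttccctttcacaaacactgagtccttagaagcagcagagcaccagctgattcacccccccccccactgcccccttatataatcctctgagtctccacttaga
In Isg15 the matches begin 78, 72 and 66 bases before the start and run into one another. In Ifit1 they begin 104 and 85 bases before it, in Ifit3 156 and 122 bases before it, and in Rsad2 120 bases before it. A match of letters is a description of the sequence and is no measure of binding.

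Rsad2, whose product viperin disturbs viral replication, was the only one of the 9 to rise after CCl4 at 4 h, 12 h and 24 h in both genotypes, and at each of these times every CCl4 liver was above every vehicle liver of its genotype. At 4 h it had 1540, 2067, 4857, 835 and 2044 normalized counts in Adamts12-/- CCl4 livers, against 108, 262, 274, 229 and 376 in Adamts12-/- vehicle livers. In wild-type mice it had 1486, 1601, 1078, 1261 and 1446 normalized counts in CCl4 livers at 4 h, against 316, 270, 313, 574 and 568 in vehicle livers. The Adamts12-/- CCl4 livers of 4 h were the more scattered, with replicate 3 far above and replicate 4 below the rest. The ratio of the means was 9.08 in Adamts12-/- livers and 3.37 in wild-type livers. On the log2 scale, with 1 added to each value, the CCl4 effect was 3.05 ± 0.35 (SE) in Adamts12-/- livers and 1.81 ± 0.35 in wild-type livers (limma, Benjamini-Hochberg adjusted p = 6.83e-11 and 1.86e-05).

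At 12 h Rsad2 had 2394, 1980, 1116 and 1463 normalized counts in the 4 Adamts12-/- CCl4 livers kept, against 529, 772, 138 and 207 in the 4 Adamts12-/- vehicle livers kept. Wild-type livers of 12 h had 2587, 828, 893, 1300 and 1368 normalized counts of Rsad2 after CCl4, against 376, 177, 186, 334 and 247 after vehicle. The log2 effect of CCl4 at 12 h was 2.34 ± 0.39 in Adamts12-/- livers and 2.34 ± 0.35 in wild-type livers (adjusted p = 1.29e-06 and 5.8e-08). With all 80 libraries in the fit, Rsad2 in Adamts12-/- livers of 12 h gave 1.17 ± 0.45, with an adjusted p of 0.0599. At 24 h the levels after CCl4 were lower than at the earlier times, at 681, 627, 395, 507 and 326 normalized counts in Adamts12-/- CCl4 livers, against 119, 218, 240, 319 and 106 in Adamts12-/- vehicle livers. In wild-type livers Rsad2 had 621, 1000, 586, 456 and 398 normalized counts at 24 h after CCl4, against 128, 253, 122, 194 and 122 after vehicle. The log2 effects at 24 h were 1.41 ± 0.35 in Adamts12-/- livers and 1.88 ± 0.35 in wild-type livers (adjusted p = 0.000821 and 8.31e-06).

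By 7 days the CCl4 and vehicle livers of both genotypes overlapped in Rsad2, with means of 662 ± 94 and 754 ± 294 normalized counts in Adamts12-/- CCl4 and vehicle livers and of 572 ± 137 and 708 ± 94.2 in wild-type CCl4 and vehicle livers (SD, n = 5 each). Ordered by mean over the 16 groups, Rsad2 was highest in Adamts12-/- CCl4 livers of 4 h (2269 ± 1531), followed by Adamts12-/- CCl4 livers of 12 h (1738 ± 563), wild-type CCl4 livers of 12 h (1395 ± 708) and wild-type CCl4 livers of 4 h (1375 ± 206). These 4 groups overlapped one another. The lowest means of Rsad2 were in vehicle livers of 24 h, at 200 ± 88.9 in Adamts12-/- and 164 ± 58.4 in wild-type mice, and these overlapped too.

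**Figure D1:**
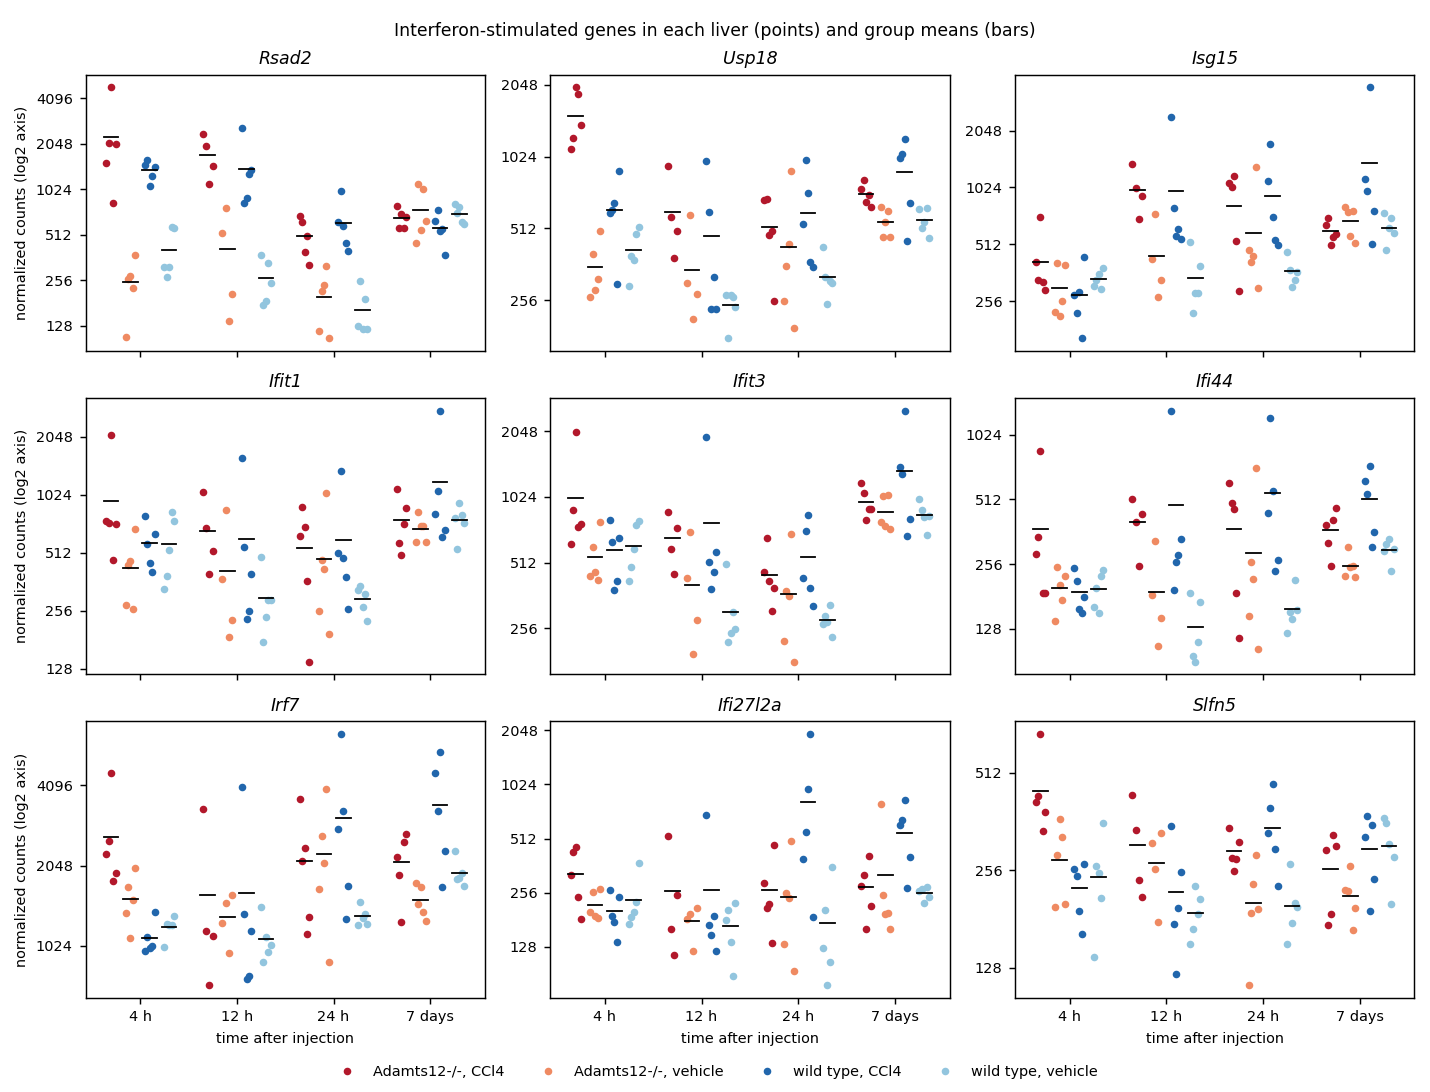
Normalized counts of the 9 interferon-stimulated genes on a log2 axis, against time after injection. Each point is a liver, black bars are group means, and colours give genotype and treatment. Rsad2 stands between 835 and 4857 in Adamts12-/- CCl4 livers of 4 h and between 1078 and 1601 in wild-type CCl4 livers of 4 h, above all vehicle livers of that time, while most other genes overlap between groups.

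Usp18, which restrains interferon signalling at the receptor, rose at 4 h in Adamts12-/- livers. Its values there were 1102, 1230, 2002, 1878 and 1386 normalized counts after CCl4, against 265, 398, 281, 313 and 498 after vehicle. In wild-type livers of 4 h Usp18 had 591, 610, 655, 300 and 893 normalized counts after CCl4, against 294, 391, 377, 487 and 521 after vehicle. The Adamts12-/- CCl4 livers were all above every other liver of 4 h, while the wild-type CCl4 and vehicle livers overlapped through replicate 4 of the CCl4 group. The CCl4 effect on Usp18 was 2.11 ± 0.32 (log2, adjusted p = 9.02e-08) in Adamts12-/- livers and 0.50 ± 0.32 (adjusted p = 0.197) in wild-type livers. Over the 16 groups the mean of Usp18 was highest in Adamts12-/- CCl4 livers of 4 h (1520 ± 399), and the next, wild-type CCl4 livers of 7 days (879 ± 313), overlapped with it.

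Usp18 was also called higher at 12 h in both genotypes and at 24 h in wild-type livers, each time with overlapping groups. The effect at 12 h was 0.83 ± 0.35 in Adamts12-/- livers and 0.73 ± 0.32 in wild-type livers (adjusted p = 0.0466 and 0.041). At 24 h it was 0.40 ± 0.32 in Adamts12-/- livers and 0.80 ± 0.32 in wild-type livers (adjusted p = 0.319 and 0.0292). In Adamts12-/- livers of 12 h the effect on Usp18 with all 80 libraries was 0.67 ± 0.31 (adjusted p = 0.129), and the call was also lost without CCl4 replicate 1 (0.58, adjusted p = 0.193), replicate 2 (0.82, adjusted p = 0.0773) or replicate 4 (0.89, adjusted p = 0.0541). In wild-type livers of 12 h the call was lost without CCl4 replicate 1 (0.41, adjusted p = 0.266) or replicate 2 (0.58, adjusted p = 0.123), without vehicle replicate 2 (0.62, adjusted p = 0.108) or replicate 5 (0.73, adjusted p = 0.0594), and without mice numbered below 7000 (0.11, adjusted p = 0.803). At 24 h the wild-type call was lost without CCl4 replicate 2 (0.59, adjusted p = 0.132) or replicate 3 (0.70, adjusted p = 0.0781), or vehicle replicate 3 (0.71, adjusted p = 0.0742).

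Isg15, the ubiquitin-like modifier that Usp18 removes, was called in neither genotype at 4 h. Its effect at 4 h was 0.44 ± 0.36 in Adamts12-/- livers and -0.35 ± 0.36 in wild-type livers (log2, adjusted p = 0.362 and 0.477). At 12 h Isg15 was higher after CCl4 in both genotypes. It had 1355, 1012, 700 and 925 normalized counts in Adamts12-/- CCl4 livers of 12 h, against 431, 741, 269 and 331 in Adamts12-/- vehicle livers. Wild-type livers had 2411, 797, 565, 615 and 546 normalized counts of Isg15 at 12 h after CCl4, against 525, 222, 283, 284 and 393 after vehicle. The wild-type groups did not overlap, and replicate 1 of the CCl4 group stood far above the other 4, whereas the Adamts12-/- groups overlapped through vehicle replicate 3. The effect was 1.24 ± 0.41 in Adamts12-/- livers and 1.32 ± 0.36 in wild-type livers (adjusted p = 0.00942 and 0.00145). At 24 h the effect on Isg15 was 0.51 ± 0.36 in Adamts12-/- livers (adjusted p = 0.261) and 1.17 ± 0.36 in wild-type livers (adjusted p = 0.00561). With all 80 libraries the effect in Adamts12-/- livers of 12 h was 0.87 ± 0.37 (adjusted p = 0.093), and without mice numbered below 7000 that in wild-type livers of 12 h was 0.81 ± 0.37 (adjusted p = 0.0562).

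Ifit1 and Ifit3, antiviral effectors whose genes lie near each other, were less uniform. At 4 h Ifit3 had 624, 889, 2024, 744 and 773 normalized counts in Adamts12-/- CCl4 livers, against 443, 605, 463, 426 and 787 in Adamts12-/- vehicle livers. The groups overlapped, and CCl4 replicate 3 stood above all others. The effect on Ifit3 at 4 h was 0.79 ± 0.33 in Adamts12-/- livers (adjusted p = 0.0495) and -0.08 ± 0.33 in wild-type livers (adjusted p = 0.869). This call in Adamts12-/- livers was lost in 7 of the 10 fits that left out a liver (CCl4 replicates 2, 3 and 5 and vehicle replicates 1 to 4), with the smallest effect, 0.50, without CCl4 replicate 3 (adjusted p = 0.256). In wild-type livers Ifit3 was called higher at 12 h (1.12 ± 0.33, adjusted p = 0.00282) and at 24 h (0.87 ± 0.33, adjusted p = 0.0234). The 12 h effect on Ifit3 was 0.69 ± 0.35 without mice numbered below 7000 (adjusted p = 0.0862), and the 24 h call was lost without CCl4 replicate 2 (0.74, adjusted p = 0.0717) or replicate 3 (0.68, adjusted p = 0.0969). In Adamts12-/- livers it gave 0.84 ± 0.37 at 12 h and 0.40 ± 0.33 at 24 h (adjusted p = 0.0531 and 0.331). Ifit1 passed the threshold in none of the 8 comparisons of CCl4 with vehicle, and its effect nearest to it was 1.05 ± 0.44 in Adamts12-/- livers of 4 h (adjusted p = 0.0501).

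Ifi44, an interferon-induced cytoplasmic protein, was called higher after CCl4 at 12 h in both genotypes and at 24 h in wild-type livers. At 24 h it had 611, 491, 461, 187 and 116 normalized counts in Adamts12-/- CCl4 livers, against 147, 261, 219, 718 and 103 in Adamts12-/- vehicle livers. Wild-type livers of 24 h had 238 to 1225 normalized counts of Ifi44 after CCl4 (median 442), against 123 to 217 after vehicle (median 153). The wild-type groups did not overlap, while the Adamts12-/- groups covered nearly the same range, with the highest liver among the vehicle livers. The effect on Ifi44 was 1.15 ± 0.45 in Adamts12-/- livers and 1.54 ± 0.40 in wild-type livers at 12 h (adjusted p = 0.029 and 0.0008). At 24 h it was 0.45 ± 0.40 in Adamts12-/- livers and 1.54 ± 0.40 in wild-type livers (adjusted p = 0.377 and 0.000948). With all 80 libraries the effect on Ifi44 in Adamts12-/- livers of 12 h was 0.50 ± 0.43 (adjusted p = 0.435), and the call was lost in 5 of the 8 fits that left out a liver, with 0.92 without vehicle replicate 4 (adjusted p = 0.114).

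Irf7 and Ifi27l2a were called only in wild-type livers of 24 h among the 8 comparisons of CCl4 with vehicle. Ifi27l2a had 290, 210, 223, 134 and 471 normalized counts in Adamts12-/- CCl4 livers of 24 h, against 133, 256, 240, 495 and 94 in Adamts12-/- vehicle livers. In wild-type livers of 24 h it had 395, 560, 970, 1955 and 188 normalized counts after CCl4, against 127, 206, 78, 106 and 357 after vehicle. The Adamts12-/- groups overlapped throughout, and the wild-type groups overlapped through CCl4 replicate 5, which lay below vehicle replicates 2 and 5. The effect on Ifi27l2a was 0.23 ± 0.44 in Adamts12-/- livers and 1.99 ± 0.44 in wild-type livers (adjusted p = 0.696 and 0.000121). Irf7 gave -0.05 ± 0.34 in Adamts12-/- livers and 1.01 ± 0.34 in wild-type livers of 24 h (adjusted p = 0.918 and 0.0112). Without wild-type CCl4 replicate 2, which had 6399 normalized counts of Irf7, the wild-type effect on Irf7 was 0.69 (adjusted p = 0.0929).

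Slfn5, a member of the Schlafen family, was called higher after CCl4 at 4 h and 24 h in Adamts12-/- livers and at 24 h in wild-type livers. The effect at 4 h was 0.71 ± 0.24 in Adamts12-/- livers and -0.08 ± 0.24 in wild-type livers (adjusted p = 0.0159 and 0.839). At 24 h it was 0.59 ± 0.24 in Adamts12-/- livers and 0.78 ± 0.24 in wild-type livers (adjusted p = 0.0444 and 0.00573). The groups overlapped in each case. Leaving out single livers took the call from Slfn5 in Adamts12-/- mice, as at 4 h without CCl4 replicate 3 (0.56, adjusted p = 0.0826) and at 24 h without vehicle replicate 1 (0.39, adjusted p = 0.212).

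Counted over the 9 genes, 4 were higher after CCl4 in Adamts12-/- livers at 4 h (21.1% of all genes tested were called higher in that comparison) and 1 in wild-type livers (23.1% of all genes). At 12 h 4 were higher in Adamts12-/- livers (23.6% of all genes) and 5 in wild-type livers (29% of all genes). At 24 h 2 were higher in Adamts12-/- livers (21.1% of all genes) and 8 in wild-type livers (26.2% of all genes). At 7 days 0 of 9 were called in Adamts12-/- livers (0.309% of all genes) and 0 of 9 in wild-type livers (0.0275% of all genes). At an unadjusted p under 0.05 the counts at 7 days were 0 in Adamts12-/- livers and 3 in wild-type livers. The share of all genes at that unadjusted threshold was not counted, so these counts stand without a background. None of the 9 was called lower after CCl4 at any time in either genotype. Among all genes 17.7%, 23.1%, 23% and 0.385% were called lower at 4 h, 12 h, 24 h and 7 days in Adamts12-/- livers, and 20.5%, 29.4%, 25% and 0.0275% in wild-type livers. Every CCl4 liver stood above every vehicle liver at 4 h for 2 members in Adamts12-/- mice (17.1% of all genes) and 1 in wild-type mice (19% of all genes), and at 12 h for 1 (18.6%) and 3 (21.4%) in those genotypes. At 24 h this held for 1 member in Adamts12-/- mice (10.1% of all genes) and 3 in wild-type mice (14.3% of all genes). The median effect over the 9 was 0.71 in Adamts12-/- livers and -0.08 in wild-type livers at 4 h, beside medians of -0.004 and -0.026 over all genes.

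Several of these counts depended on few livers. In Adamts12-/- livers the count at 4 h was 2 without CCl4 replicate 3 and 2 without vehicle replicate 1. The count in Adamts12-/- livers of 12 h was 0 with all 80 libraries, and 2 when any of CCl4 replicates 1, 2 and 4 or vehicle replicates 4 and 5 was left out. In Adamts12-/- livers of 24 h only Rsad2 remained when any of 7 of the 10 livers was left out: CCl4 replicates 1, 2, 4 and 5 and vehicle replicates 1, 2 and 5. The count in wild-type livers of 24 h was 5 without CCl4 replicate 2. Wild-type livers also differed in mouse number, since 2 of the 5 CCl4 livers of 12 h, 4 of the 5 vehicle livers of 24 h, and 4 of the 5 CCl4 and 2 of the 5 vehicle livers of 7 days came from mice numbered below 7000. Replicates 1 and 2 of the wild-type CCl4 livers of 12 h were among these mice. Of these, replicate 1 was the highest of its group for all 9 genes, so the 2 limits concern the same liver. Without the mice numbered below 7000, 2 members were called higher in wild-type livers of 12 h, Rsad2 at 2.21 ± 0.42 (adjusted p = 1.08e-05) and Ifi44 at 1.22 ± 0.45 (adjusted p = 0.0179). At 24 h only 1 vehicle liver was then left, which the fit assumes to vary like the other groups, and the estimates were 2.24 ± 0.62 for Rsad2 and 0.75 ± 0.72 for Ifi27l2a. The count of members called higher there was 1. At 7 days a single wild-type CCl4 liver was left, and the effect on Isg15 was 0.27 ± 0.59, against 0.81 ± 0.36 with all livers.

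**Figure D2:**
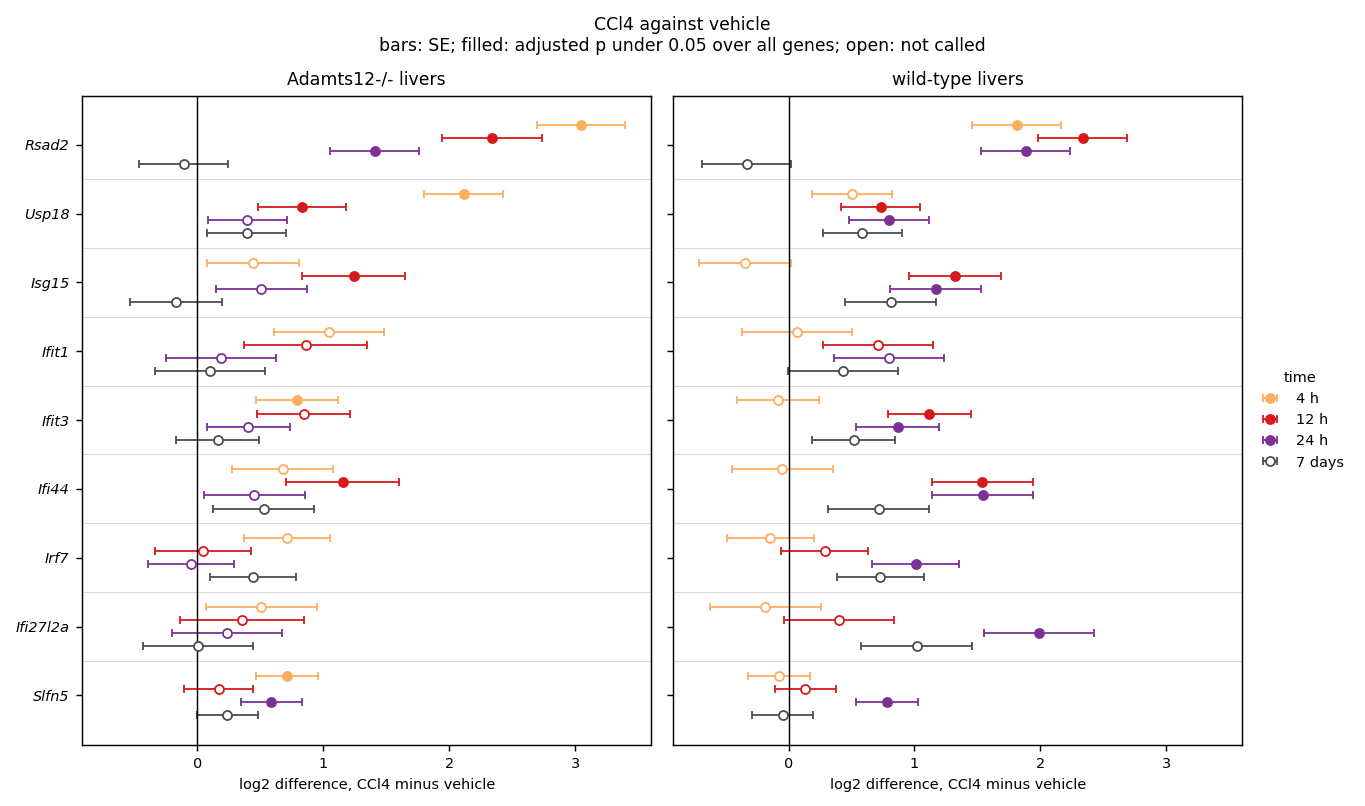
Effect of CCl4 on the 9 interferon-stimulated genes, as the log2 difference of CCl4 minus vehicle livers (x axis) at each time, in Adamts12-/- livers on the left and wild-type livers on the right. Points are limma estimates, bars are SE, and filled points passed an adjusted p of 0.05 over all genes. Rsad2 reaches 3.05 in Adamts12-/- livers of 4 h, and filled points of wild-type livers gather at 12 h and 24 h.

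The design also allows the genotypes to be set against each other within CCl4 livers. At 4 h after CCl4, Usp18 and Slfn5 were higher in Adamts12-/- than in wild-type livers, 2 of 9 members (0.213% of all genes tested were called higher). Usp18 had 1102, 1230, 2002, 1878 and 1386 normalized counts in Adamts12-/- CCl4 livers, against 591, 610, 655, 300 and 893 in wild-type CCl4 livers. The groups did not overlap, and the ratio of the means was 2.49. The difference was 1.36 ± 0.32 (log2, limma, Benjamini-Hochberg adjusted p = 0.0175). Slfn5 had 416, 433, 674, 338 and 388 normalized counts in Adamts12-/- CCl4 livers, against 258, 246, 192, 163 and 267 in wild-type CCl4 livers. These groups were apart as well, with a difference of 0.98 ± 0.24 (adjusted p = 0.0333). These Adamts12-/- CCl4 livers are the same ones that the comparison with vehicle used.

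Irf7, which amplifies interferon production, had 2266, 2532, 4573, 1793 and 1925 normalized counts in Adamts12-/- CCl4 livers of 4 h, against 975, 1102, 1007, 1017 and 1369 in wild-type CCl4 livers. The groups did not overlap, but the difference of 1.18 ± 0.34 had an adjusted p of 0.112 over all genes (unadjusted p = 0.001). In all, 3 of the 9 genes had every Adamts12-/- liver above every wild-type liver (1.36% of all genes did). The other 6 differences at 4 h were positive too, between 0.50 (Rsad2) and 0.74 (Ifi44), with unadjusted p between 0.035 (Ifit3) and 0.199 (Ifit1). The median difference over the 9 was 0.71, beside -0.01 over all genes. The call of Usp18 was lost without wild-type replicate 1 (1.37, adjusted p = 0.0522) or replicate 4 (1.12, adjusted p = 0.123), or without Adamts12-/- replicate 3 (1.25, adjusted p = 0.079) or replicate 4 (1.27, adjusted p = 0.0757). For Slfn5 it was lost in 7 of the 10 fits that left out a liver, with the smallest difference (0.82, adjusted p = 0.181) without Adamts12-/- replicate 3.

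At 4 h in vehicle livers the same genes gave -0.25 ± 0.32 for Usp18, 0.19 ± 0.24 for Slfn5 and 0.33 ± 0.34 for Irf7 between Adamts12-/- and wild-type livers (adjusted p = 0.905, 0.906 and 0.869). No member was called between genotypes in vehicle livers at 4 h (0.0618% of all genes higher), where Rsad2, at -0.74 ± 0.35, had an unadjusted p of 0.0405. The test of whether the CCl4 effect itself differed between the genotypes at 4 h called 0 members (0.00687% of all genes higher). The largest such difference was that of Usp18, at 1.61 ± 0.45 (unadjusted p = 0.000578, adjusted p = 0.764), followed by Rsad2 at 1.24 ± 0.50 (unadjusted p = 0.0157, adjusted p = 0.9998). All 9 estimates were positive, and 3 had an unadjusted p under 0.05, that of Slfn5 being 0.79 ± 0.34. The share of all genes at that unadjusted threshold was not counted. The 9 estimates rest on the same livers and the genes shared much of their scatter within groups (median r = 0.64), so they are not separate results.

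At the later times no member was called between the genotypes. At 12 h after CCl4 the 9 differences lay between 0.03 (Ifit3 and Irf7) and 0.52 (Slfn5, unadjusted p = 0.0491), and 0.0137% of all genes were called higher. With all 80 libraries in the fit, 4 of these 9 differences were below 0, the lowest being Rsad2 at -0.25 ± 0.45. At 24 h after CCl4 all 9 estimates were negative, and 0 members were called lower (0.00687% of all genes). Ifi27l2a had the largest, at -1.30 ± 0.44 (unadjusted p = 0.00427, adjusted p = 0.543). Its CCl4 effect at 24 h differed between Adamts12-/- and wild-type livers by -1.75 ± 0.62 (unadjusted p = 0.00626, adjusted p = 0.936). Of the wild-type livers of 24 h, 4 of the 5 vehicle and 0 of the 5 CCl4 livers came from mice numbered below 7000. The wild-type CCl4 effect on Ifi27l2a was smaller without these mice, as given above. At 7 days after CCl4 8 of the 9 estimates were negative and 0 were called (0% of all genes lower), with Isg15 at -0.86 ± 0.36 (unadjusted p = 0.0205, adjusted p = 0.669). Without mice numbered below 7000, which left 1 wild-type CCl4 liver, Isg15 gave -0.36 ± 0.56, and the estimates of Usp18, Ifit1, Ifit3 and Slfn5 were above 0.

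**Figure D3:**
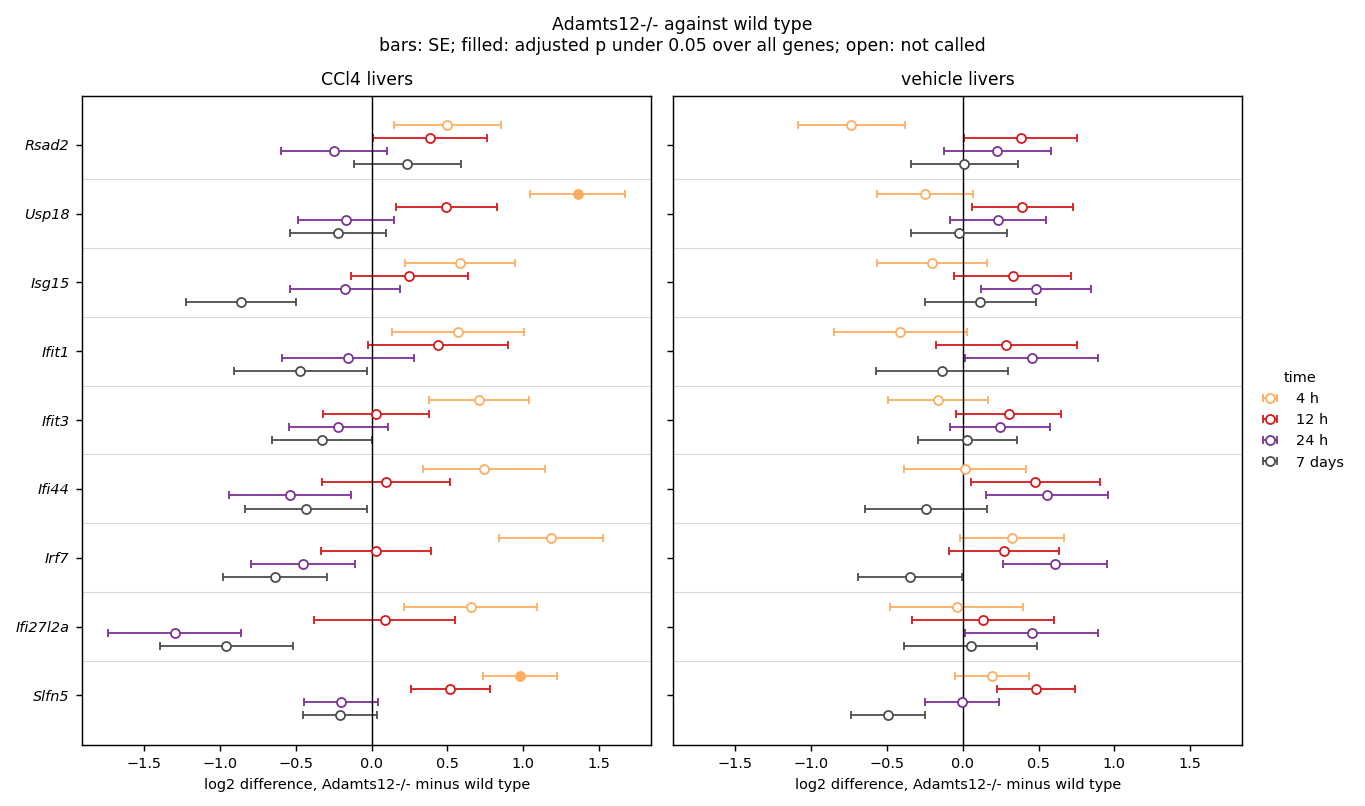
Difference between genotypes in the 9 interferon-stimulated genes, as the log2 difference of Adamts12-/- minus wild-type livers (x axis) at each time, in CCl4 livers on the left and vehicle livers on the right. Points are limma estimates, bars are SE, and filled points passed an adjusted p of 0.05 over all genes. The filled points are Usp18 (1.36) and Slfn5 (0.98) at 4 h after CCl4, and the estimates at 24 h and 7 days after CCl4 lie mostly below 0.

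Some members varied with time among the vehicle livers, in shares near those of all genes. In an F test over the 4 times, 3 members changed in Adamts12-/- vehicle livers (Rsad2, Ifit3 and Isg15; 41.7% of all genes changed) and 4 in wild-type vehicle livers (Rsad2, Ifit3, Usp18 and Ifit1; 38.9% of all genes). Ifit3 averaged 545 ± 153, 404 ± 225, 368 ± 202 and 871 ± 157 normalized counts at 4 h, 12 h, 24 h and 7 days in Adamts12-/- vehicle livers (adjusted p = 0.00171). In wild-type vehicle livers Ifit3 averaged 612 ± 165, 306 ± 115, 279 ± 34.5 and 848 ± 114 at those times (adjusted p = 7.05e-05). In both genotypes it was lowest at 24 h and highest at 7 days. Rsad2 averaged 250 ± 96.2, 412 ± 295, 200 ± 88.9 and 754 ± 294 in Adamts12-/- vehicle livers, and 408 ± 150, 264 ± 88.4, 164 ± 58.4 and 708 ± 94.2 in wild-type vehicle livers (adjusted p = 4.22e-05 and 1.41e-05). Among CCl4 livers 5 members changed with time in Adamts12-/- mice (79.4% of all genes) and 8 in wild-type mice (87.5% of all genes), Ifit1 being the exception in the wild type. The wild-type series mixes mice numbered below 7000 with others at 12 h, 24 h and 7 days. Without these mice 4 members changed in wild-type vehicle livers, and 7 in wild-type CCl4 livers, where Ifit3 was lost (adjusted p = 0.538).

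The 9 genes shared much of their scatter between livers of the same group. The residual SD within groups lay between 0.39 (Slfn5) and 0.72 (Ifi27l2a) on the log2 scale, beside a median of 0.33 over all genes. Over the 78 libraries, after the mean of its group was taken from each value, the median Pearson r over the pairs of members was 0.64. Ifit1 was closest to the others (median r = 0.79), and Slfn5 and Ifi27l2a were the least close (0.41 and 0.44). In 4 libraries all 9 genes were at the highest value of their group at once. These were replicate 3 of the Adamts12-/- CCl4 livers of 4 h, replicate 1 of the Adamts12-/- CCl4 livers of 12 h, replicate 4 of the Adamts12-/- vehicle livers of 24 h and replicate 1 of the wild-type CCl4 livers of 12 h. Their mean deviation from the group over the 9 genes was 0.96, 0.72, 1.15 and 1.47 on the log2 scale, and they had 24.79, 55.81, 29.51 and 19.71 M reads. One of the 4 was a vehicle liver.

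In these 4 livers the other interferon-stimulated genes were high as well. The summed level of the 43 measured ones was 66855 normalized counts in the Adamts12-/- CCl4 liver of 4 h, against 39642 to 52637 in the other 4 of its group. In the Adamts12-/- CCl4 liver of 12 h it was 56750, against 37501 to 45788, and in the wild-type CCl4 liver of 12 h it was 65981, against 35545 to 43233. In the Adamts12-/- vehicle liver of 24 h it was 78270, against 51759 to 58568. Kupffer cell markers, for the resident macrophages, summed to 20457 normalized counts in the Adamts12-/- CCl4 liver of 4 h, against 11623 to 17532 in the others of its group. They summed to 15140 in the Adamts12-/- CCl4 liver of 12 h (others 4291 to 9350) and 9778 in the wild-type one (others 2631 to 7440). The vehicle liver, at 13110, lay within the 5090 to 20923 of its group. Over the 78 libraries the within-group deviation of the 9 genes followed that of the other interferon-stimulated genes (Pearson r = 0.92, Spearman rho = 0.87) and of the interferon-gamma induced genes (r = 0.64, rho = 0.66). It followed less the genes for sensing of nucleic acids and induction of interferon (r = 0.43, rho = 0.40) and T and NK cell markers (r = 0.40, rho = 0.42). It followed negative regulators of interferon signalling (r = 0.21, rho = 0.23) and Kupffer cell markers (r = 0.19, rho = 0.23) little. Hepatocyte markers (r = 0.05, rho = 0.03) and the number of reads (r = -0.11, rho = -0.09) were followed hardly at all. These correlations are a description, and the points share libraries and size factors.

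**Figure D4:**
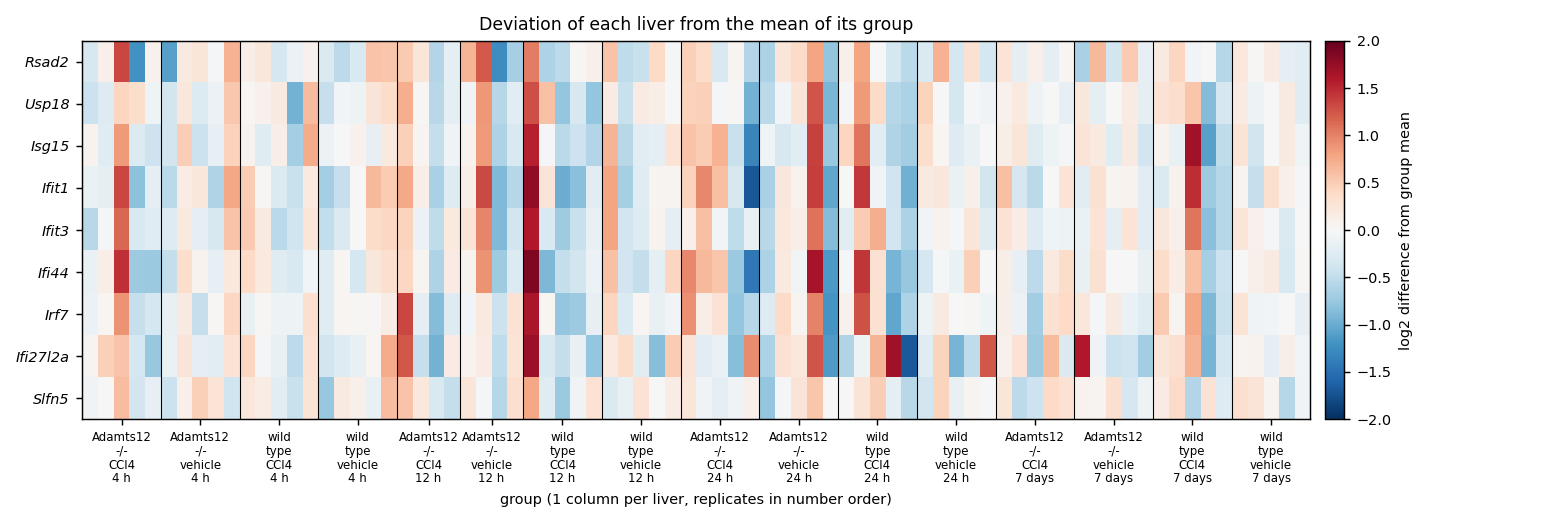
Deviation of each liver from the mean of its group for the 9 interferon-stimulated genes (rows), on the log2 scale (colour), with 1 column per liver. Vertical lines part the 16 groups, and within a group the livers stand in the order of their replicate numbers. Single dark red columns, such as replicate 1 of the wild-type CCl4 livers of 12 h (mean deviation 1.47), show livers in which all 9 genes were high together.

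The 10 genes whose log2 level over the 78 libraries was most like the mean of the 9 were Rtp4 (r = 0.87), Gbp3 (0.865), Ifit3b (0.86), Oasl2 (0.85), Ifit2 (0.85), Cmpk2 (0.83), Ifi213 (0.825), Mx1 (0.82), Oas1a (0.79) and Trim30d (0.78). Of these 7 belong to the list of other interferon-stimulated genes, and Gbp3, a guanylate-binding protein, to the interferon-gamma list. Ifit3b is a close copy of Ifit3, and reads of the pair may have been shared.

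The other interferon-stimulated genes moved in both directions. At 4 h 13 of the 43 measured were higher and 3 lower after CCl4 in Adamts12-/- livers (21.1% and 17.7% of all genes tested). In wild-type livers of 4 h 6 were higher and 5 lower (23.1% and 20.5% of all genes). Cmpk2, a nucleotide kinase that lies beside Rsad2, rose by 1.89 ± 0.32 in Adamts12-/- livers and 1.14 ± 0.32 in wild-type livers at 4 h (adjusted p = 2.07e-06 and 0.00286). Mx2, a dynamin-like antiviral protein, rose by 1.45 ± 0.27 and 1.04 ± 0.27 in Adamts12-/- and wild-type livers (adjusted p = 1.36e-05 and 0.0012). Ube2l6, the conjugating enzyme for Isg15, was lower at 4 h, at -0.63 ± 0.24 in Adamts12-/- livers and -1.02 ± 0.24 in wild-type livers (adjusted p = 0.0289 and 0.000272). At 12 h 7 were higher and 5 lower in Adamts12-/- livers (23.6% and 23.1% of all genes). In wild-type livers of 12 h 10 were higher and 7 lower (29% and 29.4% of all genes). Oasl1 was far higher in both, at 2.53 ± 0.32 and 2.20 ± 0.29 in Adamts12-/- and wild-type livers, while the ligase partners Dtx3l (-1.02 ± 0.24 and -1.30 ± 0.21) and Parp9 (-0.90 ± 0.22 and -1.13 ± 0.20) were lower in both. With all 80 libraries the counts in Adamts12-/- livers of 12 h were 2 higher and 1 lower.

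At 24 h 4 of the 43 were higher and 8 lower in Adamts12-/- livers (21.1% and 23% of all genes), and 20 were higher and 3 lower in wild-type livers (26.2% and 25% of all genes). In wild-type livers of 24 h the clearest were Phf11d (1.72 ± 0.30), Oasl1 (1.35 ± 0.29), Oasl2 (1.52 ± 0.34) and Mx1 (1.62 ± 0.36), and without the mice numbered below 7000 the counts were 4 higher and 0 lower. In Adamts12-/- livers Oasl1 (1.11 ± 0.29) and Bst2, a membrane tether of budding virus (0.94 ± 0.27), were higher and Ube2l6 (-0.77 ± 0.24) and Parp9 (-0.64 ± 0.20) were lower. At 7 days 1 was called in Adamts12-/- livers, Oas1b at 1.28 ± 0.33 (adjusted p = 0.039), and 0 in wild-type livers (0.309% and 0.0275% of all genes higher). Between the genotypes at 4 h after CCl4, 0 of the 43 were called, 41 of the 43 estimates were positive, and their median was 0.33 beside -0.01 over all genes. The smallest adjusted p was that of Slfn9, at 1.19 ± 0.34 (adjusted p = 0.101).

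The genes that carry the interferon signal also moved in both directions. Stat2, which belongs to the complex that binds the response element, was lower after CCl4 at 4 h, 12 h and 24 h in both genotypes. It averaged 1904 ± 352 normalized counts in Adamts12-/- CCl4 livers of 4 h and 2749 ± 133 in Adamts12-/- vehicle livers, and 1956 ± 311 in wild-type CCl4 livers and 3538 ± 382 in wild-type vehicle livers (SD, n = 5 each). Its log2 effects at 4 h, 12 h and 24 h were -0.55 ± 0.16, -0.77 ± 0.18 and -0.62 ± 0.16 in Adamts12-/- livers, and -0.86 ± 0.16, -0.87 ± 0.16 and -0.46 ± 0.16 in wild-type livers. Ifnar2, a chain of the type I receptor, was lower at the same times, with its largest effect at 12 h (-0.80 ± 0.15 in Adamts12-/- and -0.98 ± 0.14 in wild-type livers). Ifnar1 was lower at 4 h alone among the 4 times, by -0.27 ± 0.10 in Adamts12-/- and -0.25 ± 0.10 in wild-type livers (adjusted p = 0.0297 and 0.0374). Irf9 was lower in Adamts12-/- livers of 24 h (-0.42 ± 0.13, adjusted p = 0.00589) and gave 0.03 ± 0.13 in wild-type livers. Ifngr1, the ligand-binding chain of the interferon-gamma receptor, was higher at 4 h, 12 h and 24 h in both genotypes, reaching 1.42 ± 0.17 in Adamts12-/- and 1.59 ± 0.15 in wild-type livers at 12 h. Over the 11 genes of receptors, kinases and factors, 3 were higher and 3 lower at 4 h in each genotype, and 0 were called at 7 days in either. Of all genes, 21.1% were higher and 17.7% lower at 4 h in Adamts12-/- livers, and 23.1% and 20.5% in wild-type livers.

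**Figure D5:**
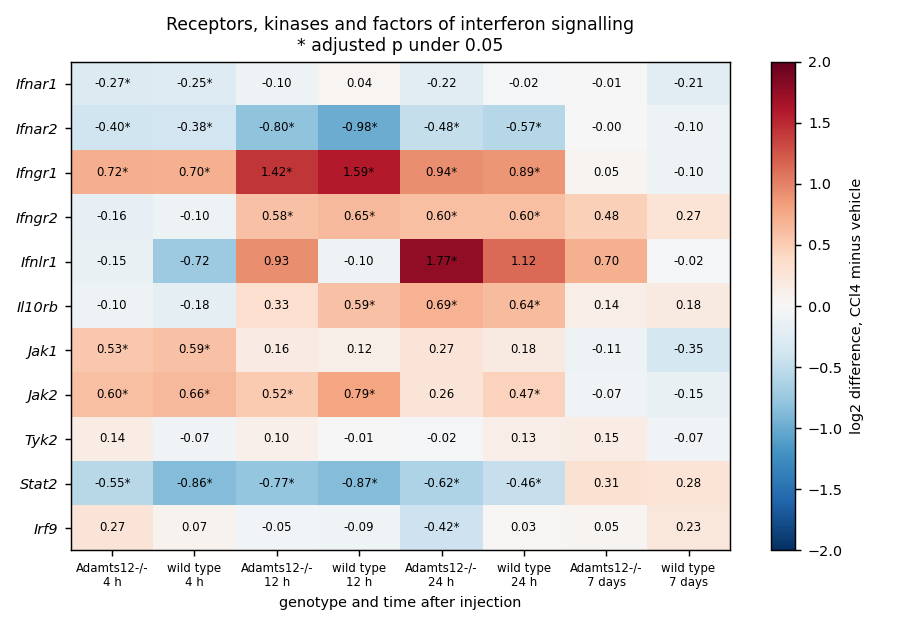
Effect of CCl4 on 11 genes of interferon signalling (rows) in each genotype and time (columns), as the log2 difference of CCl4 minus vehicle livers (colour and number), with an asterisk where the adjusted p was under 0.05. Stat2 and Ifnar2 are lower and Ifngr1 is higher at 4 h, 12 h and 24 h in both genotypes, and no gene is marked at 7 days.

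The genes of the interferons themselves were not analysed here. Of 14 measured genes for sensing of nucleic acids and induction of interferon, 2 were higher and 3 lower at 4 h in Adamts12-/- livers (21.1% and 17.7% of all genes). In wild-type livers of 4 h 3 were higher and 1 lower (23.1% and 20.5% of all genes). The kinase Ikbke rose by 1.09 ± 0.24 in Adamts12-/- and 1.16 ± 0.24 in wild-type livers, its relative Tbk1 rose by 0.52 ± 0.12 and 0.66 ± 0.12, and Tlr3, the sensor of double-stranded RNA, fell by 0.88 ± 0.22 and 0.97 ± 0.22 in the same genotypes. Of 18 measured genes induced by interferon-gamma, 9 were higher and 0 lower at 12 h in Adamts12-/- livers (23.6% and 23.1% of all genes). In wild-type livers of 12 h 11 were higher and 0 lower (29% and 29.4% of all genes). Cxcl10, a chemokine for T cells, was higher by 4.21 ± 0.45 in Adamts12-/- and 4.05 ± 0.40 in wild-type livers of 12 h (adjusted p = 1.01e-11 and 2.43e-13). Between the genotypes at 4 h after CCl4 0 of these 18 were called, while 17 of the 18 estimates were positive (median 0.37). These estimates too rest on the same livers, and their signs are not separate results. Of 7 measured negative regulators, Socs1, which inhibits the kinases, was higher at 12 h (1.59 ± 0.54 in Adamts12-/- and 1.64 ± 0.49 in wild-type livers). Socs1 does not stand for the list. The summed level of the 7 had a median of 3893 normalized counts after CCl4 and 5719 after vehicle in Adamts12-/- livers of 12 h. In wild-type livers of 12 h these medians were 3651 and 5125, and the CCl4 and vehicle livers overlapped in both genotypes.

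Markers of several cell types, from lists written for this work, moved with CCl4 beside these genes. Of all genes, 23.1% in Adamts12-/- and 29.4% in wild-type livers were called lower at 12 h. At 24 h 21.1% in Adamts12-/- and 26.2% in wild-type livers were called higher. Of 8 Kupffer cell markers, 0 were called at 4 h in either genotype, and at 12 h 5 were lower in Adamts12-/- livers and 6 in wild-type livers. Of 10 monocyte and macrophage markers, 9 were higher in Adamts12-/- livers and 7 in wild-type livers at 24 h, when their summed level lay between 5650 and 17736 normalized counts in Adamts12-/- CCl4 livers and 1423 and 3703 in Adamts12-/- vehicle livers. In wild-type livers of 24 h it lay between 15793 and 27095 after CCl4 and 4032 and 10745 after vehicle. Of 10 T and NK cell markers, 0 were called in Adamts12-/- livers of 24 h and 3 (Ncr1, Gzma and Prf1) were higher in wild-type livers. In wild-type livers of 24 h these 10 summed to 156 to 881 normalized counts after CCl4 (median 256) and 152 to 280 after vehicle (median 200). Of 8 hepatocyte markers, 7 were lower in Adamts12-/- livers and 8 in wild-type livers at 12 h. Between the genotypes at 4 h after CCl4, 0 markers of any of these lists were called. The 8 Kupffer cell markers were all positive there (median 0.515), with summed levels of 11623 to 20457 normalized counts in Adamts12-/- CCl4 livers and 7669 to 14716 in wild-type CCl4 livers. The 8 estimates share the same livers and are not separate results. The 3 measured markers of plasmacytoid dendritic cells, a main source of type I interferon, summed to 156 to 222 normalized counts in Adamts12-/- CCl4 livers and 76.7 to 376 in wild-type CCl4 livers of 4 h. Most of this sum was Ly6d, which averaged 162 ± 20 in Adamts12-/- and 184 ± 131 in wild-type CCl4 livers of 4 h. Siglech, the more specific marker, averaged 16.1 ± 8.57 in Adamts12-/- and 18.6 ± 4.94 in wild-type CCl4 livers of 4 h, and Ccr9 averaged 8.66 ± 3.17 and 9.15 ± 2.57 in those groups (SD, n = 5 each). Siglech and Ccr9 were low, beside the 1.89 to 4.52 normalized counts that a value of 0 allows in the CCl4 libraries of 4 h. The largest such value of any library used was 6.02. At 12 h Ly6d averaged 2505 in Adamts12-/- CCl4 and 438 in Adamts12-/- vehicle livers, and 2213 and 508 in wild-type livers. Siglech averaged 8.95 and 13.6, and 3.81 and 7.77, in those groups, so the sum did not follow it. No marker was at 0 in every liver of a group, and the part of these cells in the results on the 9 genes was not tested.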

How the data were processed

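RNA-seq was done on whole livers. Per the submitters' processing notes, STAR, HTSeq, DESeq2 and the build GRCm38 were used, with no versions given. The values are normalized counts deposited by the authors, a signal scaled by a size factor per library, and not raw counts. Of 14560 genes, 14558 reached 10 normalized counts in 5 or more libraries and were tested. Values were taken as log2 after adding 1 and fitted with limma 3.58.1 in R 4.3.3, with 1 mean for each of 16 groups over 78 libraries, with Benjamini-Hochberg adjustment over all genes tested and a threshold of 0.05. The procedure was tested on simulated data. Within each library the values were whole multiples of 1 step (within 0.01), which gave the numbers of reads quoted. The planned count tests on reads recovered this way were not run, because the deposited column, which holds all libraries with their different steps, was not accepted as recovered reads in a check of its unit.

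The 9 members, and the gene lists, were chosen with earlier results of these data known. Named besides the members are, of each list, up to 4 genes with the smallest adjusted p in a comparison, the factors and receptors of the pathway, and the 10 genes most like the members; Stat2, Irf9, Ifnar1 and Ifnar2 were always named. A further gene planned for the signalling list is not reported here, and the 11 genes counted leave it out. Others (Ube2l6 in Adamts12-/- livers of 4 h, Socs1, Tbk1, Tlr3 and the markers named) were chosen after their values were seen where they fall outside this rule. Precision is limited by 4 or 5 livers per group. Comparisons of genotype and of treatment at a time share livers. Levels were not divided by gene length, so no level is compared between genes. Alternatives were all 80 libraries, an added 8, no filter, a mean of at least 100, quantile normalization, a replicate block, a fit of only the groups compared, wild-type livers without mice numbered below 7000, and each library left out in turn (78 fits).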

Additional observations from a re-analysis of the deposited data

Results flagged for a closer look

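In 6 of the 144 combinations of gene and group, 1 liver stood apart from the rest by a gap of more than 0.71 of the range of the group, and chance gives about 5 percent of groups. Of these, 4 were in replicate 1 of the wild-type CCl4 livers of 12 h. It had 691 normalized counts of Ifi27l2a (others 121 to 189), 2411 of Isg15 (others 546 to 797), 1929 of Ifit3 (others 386 to 575) and 1327 of Ifi44 (others 194 to 336). Replicate 1 of the Adamts12-/- vehicle livers of 7 days had 801 normalized counts of Ifi27l2a, against 162 to 250 in the others. Replicate 2 of the wild-type vehicle livers of 12 h had 177 normalized counts of Usp18, against 240 to 270 in the others.

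The library labelled Adamts12-/- 12 h vehicle replicate 1, which was left out, had 2110 normalized counts of Rsad2, against 138 to 772 in the vehicle livers kept. It also had 530 of Ifi44 (others 107 to 327) and 342 of Slfn5 (others 177 to 333).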

How the results depend on the processing

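No result changed direction past its threshold under any alternative run. Without wild-type mice numbered below 7000, members called higher after CCl4 in wild-type livers numbered 2 at 12 h (5 with them) and 1 at 24 h (8 with them), where 1 vehicle liver was left and its spread was taken from the other groups, and the other interferon-stimulated genes gave 6 higher and 11 lower at 12 h and 4 higher and 0 lower at 24 h. With all 80 libraries, Adamts12-/- livers of 12 h gave 0 members higher, and 2 of the other genes higher and 1 lower; at 7 days 0 of the others were higher. Under quantile normalization, members higher in Adamts12-/- livers numbered 2 at 4 h, 2 at 12 h and 1 at 24 h, members higher in Adamts12-/- than wild-type livers at 4 h after CCl4 numbered 1, and 9 of the other genes were lower in wild-type livers of 4 h. With only the groups compared, 1 member was higher in Adamts12-/- livers of 24 h, 8 changed with time in wild-type vehicle livers, 12 of the other genes were lower in wild-type livers of 4 h and 1 at 24 h, and in Adamts12-/- livers 2 were higher and 1 lower at 24 h and 0 higher at 7 days, as with a mean of at least 100 (0 higher at 7 days). Counts over all genes moved as well, 10 of them with all 80 libraries and 16 without mice numbered below 7000. Causes were not tested.

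Leaving out 1 library at a time, members higher in Adamts12-/- livers ranged over 2 to 5 at 4 h, 2 to 6 at 12 h and 1 to 2 at 24 h, in wild-type livers over 4 to 5 at 12 h and 5 to 8 at 24 h, and between genotypes at 4 h after CCl4 over 0 to 2. Members changing with time ranged over 4 to 6 in Adamts12-/- CCl4 livers, 2 to 3 in Adamts12-/- vehicle livers, 6 to 9 in wild-type CCl4 livers and 4 to 5 in wild-type vehicle livers. Of the other genes, in Adamts12-/- livers 6 to 16 were higher and 1 to 4 lower at 4 h, 2 to 9 higher and 2 to 9 lower at 24 h and 0 to 2 higher at 7 days. In wild-type livers 3 to 6 were lower at 4 h, 1 to 6 lower at 24 h and 0 to 3 higher at 7 days. A replicate block moved no count of members by over 1.5 times. Under it Usp18 at 4 h after CCl4 gave 1.36 between genotypes (adjusted p = 0.0159). Usp18 in Adamts12-/- livers of 12 h gave 0.74 under it (adjusted p = 0.0772), and Ifit1 in Adamts12-/- livers of 4 h had an adjusted p of 0.0474. The replicate numbers are only numbers: deviations of same-numbered livers had a median r of -0.006, against 0.001 for other numbers.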
